A study of Mus musculus with 8 samples.

Results

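The cytosolic ribosome is built from a large and a small subunit, each a core of ribosomal RNA covered by proteins encoded in the nucleus. The messenger RNAs of these proteins are among the most abundant in growing cells. They share short, pyrimidine-rich starts known as terminal oligopyrimidine tracts, through which mTORC1 and the RNA-binding protein LARP1 control their translation and stability. The genes described here are those whose symbol is Rpl (large subunit) or Rps (small subunit) followed by digits and at most 1 of the letters a, x, l or y, with Rplp0, Rplp1, Rplp2 and Rpsa, and without pseudogenes named with -ps. The rule found 82 genes, 50 of the large and 32 of the small subunit, among 39388 genes in the table once the rows of further copies had been added to their gene. Of these, 74 passed an ordinary filter on low counts (46 large, 28 small), and 13342 genes passed it in all.

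The libraries came from hanging-drop spheroids of 4T1, a mouse mammary carcinoma line that originated in a BALB/c mouse. All cells had received a lentivirus, which carried a scrambled short hairpin RNA in the control group (shCtrl, 4 libraries) or a hairpin directed against Tlr7 in the other (shTlr7, 4 libraries). No age, dose or time was attached to the groups, and whether the transduced cells were a pool or 1 clone is not given in the sources used here. Tlr7 is an endosomal receptor for single-stranded RNA, and the question put to these libraries is what changes when it is targeted. Library totals ranged from 18111623 to 93787535 counts. Levels are in CPM, counts per 1000000 counts of the library, after TMM scaling, which corrects library totals for differences in composition (Tlr7 and the cell type markers use uncorrected totals). Whether replicates were grown as separate cultures is not given in the labels, so each p-value rests on a spread between these samples that may be technical.

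For Tlr7 itself, the shCtrl libraries 1 to 4 held 2, 3, 2 and 2 counts, and the shTlr7 libraries 1 to 4 held 0, 4, 3 and 0. At the 0 counts, up to 3 counts, or 0.166 CPM in shTlr7 replicate 1 and 0.106 CPM in replicate 4, remain possible (counting error only), so its lowering was not detectable at this depth. Of the epithelial markers, 6 of 7 were present, with a summed level of 4069 to 4262 CPM in shCtrl and 3798 to 4164 CPM in shTlr7, and Krt5 was at 0. The sums overlapped while single markers did not: Krt14 stood at 30.8 to 36.8 CPM in shCtrl and 2.37 to 4.59 CPM in shTlr7, and Krt8 and Krt18 were also lower in every shTlr7 library, whereas Epcam (630 to 754 and 769 to 844 CPM), Cdh1 (423 to 426 and 511 to 552 CPM) and Cldn4 were higher in each. The 6 leukocyte markers summed to 0.0428 to 0.197 CPM in shCtrl and 0.276 to 0.530 CPM in shTlr7, with Adgre1 and Lyz2 at 0, and the 4 endothelial markers to 0.214 to 0.364 and 0.412 to 0.663 CPM. The 4 fibroblast markers summed to 40.3 to 41.9 CPM in shCtrl and 43.1 to 48.0 CPM in shTlr7, nearly all of it Pdgfra, with Thy1 at 0. The part of these markers in the results below was not tested. Replicate 4 of shCtrl stood apart from its group, with a chi-square per degree of freedom over all tested genes of 12.1 to 22.6 against the other 3 libraries, which gave 2.18 to 3.31 among themselves. Replicate 4 of shTlr7 gave 11.4 to 15.7 against its group, where the others gave 4.93 to 11.2 among themselves. These values are not corrected for the differing library totals. In bulk RNA, fewer cells of a type and less RNA per cell cannot be told apart.

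Start regions of these genes are shown first, because the pyrimidine tract is the feature that ties the family together. RefSeq windows of GRCm38.p6, reaching from 250 bases before to 50 after the annotated start, matched 61 of the 82 genes. Within 50 bases of the start on either side, the letters CTTTC were found on the sense strand in 32 of these 61 genes (52.5%), against 12.4% of the 10471 tested genes with a window. CTCTTT was found in 19 (31.1%, against 3.73%). A run of at least 8 C or T bases was found in 52 (85.2%, against 36.4%). The 61 include some genes that were not tested, such as Rps10 and Rpl3l. Among all 27025 genes with a window, tested or not, these shares were 14.6%, 4.68% and 39.3%. A gene with several annotated starts was counted if any of its windows matched. Over the whole window and on both strands, CCGGAAG, the core that ETS factors bind, was present in 25 of 61 (41.0%, against 19.4%), AAGATGG in 9 (14.8%, against 8.45%) and TATAAA in 7 (11.5%, against 9.06%). CTTTC on both strands, which overlaps the counts on the sense strand, was in 50 of 61 (82.0%, against 57.4%). These letters describe the windows, and a match is not evidence of a bound factor. The stretches run from 40 bases before to 20 bases from the annotated start onwards, for the 4 members called higher and the 4 called lower that had the lowest p among the 61, read 5′ to 3′ on the strand of the gene. Where a gene has several annotated starts, the stretch with the longest run was taken, and in each the longest run of C and T is in capitals. Rps12, Rps21, Rplp0 and Rplp2 were higher in shTlr7, and Rpl27a, Rpl24, Rpl35a and Rpl22 lower. Rpl24 shares exons with Gm28037.
Rps12 (chr10:23787190-23787249, minus strand): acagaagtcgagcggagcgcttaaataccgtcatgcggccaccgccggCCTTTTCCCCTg
Rps21 (chr2:180257409-180257468, plus strand): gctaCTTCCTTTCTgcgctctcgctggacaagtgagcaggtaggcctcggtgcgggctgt
Rplp0 (chr5:115559427-115559486, plus strand): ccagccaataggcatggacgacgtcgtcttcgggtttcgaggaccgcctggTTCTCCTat
Rplp2 (chr7:141447611-141447670, plus strand): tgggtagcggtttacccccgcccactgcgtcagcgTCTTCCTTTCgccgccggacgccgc
Rpl27a (chr7:109519155-109519214, plus strand): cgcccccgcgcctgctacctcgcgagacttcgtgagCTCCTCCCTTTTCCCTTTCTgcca
Rpl24 (chr16:55966235-55966294, plus strand): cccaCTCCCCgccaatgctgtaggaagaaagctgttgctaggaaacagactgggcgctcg
Rpl35a (chr16:33056442-33056501, plus strand): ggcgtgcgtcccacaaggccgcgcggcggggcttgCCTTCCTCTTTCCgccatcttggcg
Rpl22 (chr4:152325686-152325745, plus strand): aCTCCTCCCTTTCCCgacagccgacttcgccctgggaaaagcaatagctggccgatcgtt

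The longest run was 11 bases in Rps12, 10 in Rps21, 7 in Rplp0 and 10 in Rplp2, and 20 bases in Rpl27a, 6 in Rpl24, 13 in Rpl35a and 14 in Rpl22. Rpl24, called lower, had the shortest run of those printed. Run lengths of members not printed went both ways. Rpl35 and Rpl15, called lower, had 18 and 17 bases, but Rpl9, Rpl37 and Rpl11, also called lower, had 4, 6 and 7. Rpl7a and Rpl14, which were not called, had 21 and 14. Among genes with a window, CTTTC stood near the start of 4 of the 7 members called higher and 15 of the 22 called lower. CTCTTT stood near the start of 0 of 7 and 9 of 22. With 7 genes on 1 side, these counts are given as a description, and no difference between the sets was tested. Annotated starts often lie some bases away from the start in use, so the distance of a tract from the start is not read here.

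Ribosomal protein transcripts moved by small amounts and in both directions, and the count of large relative to small subunit transcripts was lower in shTlr7. With TMM scaling 24 of 46 large subunit genes were called lower in shTlr7 (10 with library totals alone), while the P-stalk genes Rplp0, Rplp1 and Rplp2 and the small protein gene Rpl41 were called higher. Calls among small subunit genes went both ways under TMM, with Rps12 and Rps21 carrying the 2 largest rises of the whole family. Over all tested genes, 56% were called by edgeR's quasi-likelihood test at an adjusted p under 0.05 with TMM scaling, 28.7% as higher and 27.2% as lower. Of 46 large subunit genes, 4 were called higher (8.7%) and 24 lower (52.2%), with a median log2 fold change of -0.12. Of 28 small subunit genes, 7 were called higher (25%) and 6 lower (21.4%), with a median of -0.03. The median over all tested genes was 0.0056. The share of calls among the members, 55.4%, was close to that of all genes and is no result about them. The groups did not overlap for 40 of the 74 members, 10 above and 30 below, against 49.8% of all tested genes. No called member changed by more than 1.40-fold, and 8 of the 41 called members passed 1.2-fold. The count of lower small subunit genes rests on single libraries: it was 2 without shCtrl replicate 1, shTlr7 replicate 1 or shTlr7 replicate 2, 3 without shCtrl replicate 2 or 3, and 11 without both libraries numbered 4.

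**Figure D1:**
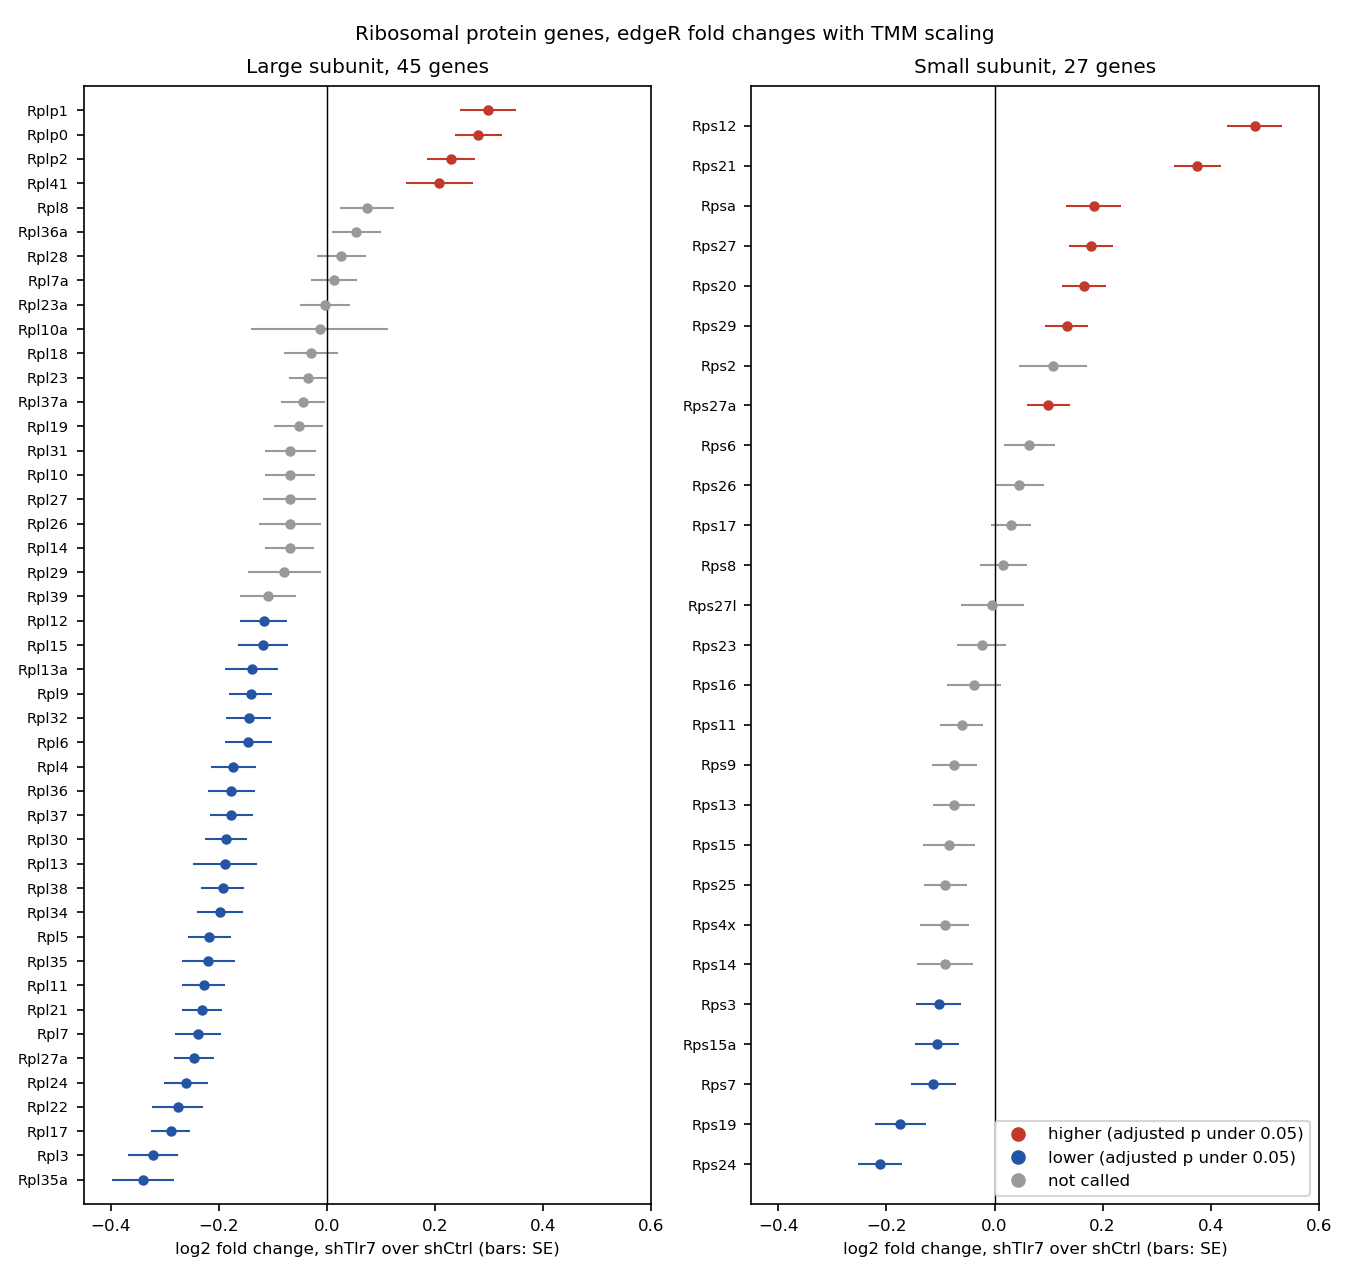
Log2 fold change of shTlr7 over shCtrl (horizontal axis, TMM scaling) for 45 of the 46 tested large subunit genes (left) and 27 of the 28 tested small subunit genes (right), sorted by value; points are edgeR estimates, bars are standard errors, red and blue mark genes called higher and lower at an adjusted p under 0.05, grey genes not called. On the left 24 genes are blue and 4 red, the P-stalk genes and Rpl41; on the right Rps12 and Rps21 stand above the rest at 0.48 and 0.38.

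The balance of the subunits can be read without any scaling between libraries, as the summed counts of the 46 large subunit genes over those of the 28 small subunit genes in each library. This ratio was 1.48, 1.48, 1.49 and 1.48 in shCtrl replicates 1 to 4 and 1.40, 1.38, 1.38 and 1.38 in shTlr7 replicates 1 to 4. The groups did not overlap, and the mean fell from 1.48 ± 0.00425 to 1.39 ± 0.00891 (SD, n = 4 each), a change of -6.52%. No p is given for this ratio, since the genes summed were chosen with results of these data known. Leaving out the 3 P-stalk genes made the change -9.96%. Leaving out Rps12 and Rps21 made it -3.98%, and leaving out all 5 made it -7.52%. With only the genes that have no further copy and no exon shared with another gene, it was -5.81%.

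The summed levels of each subunit overlapped between the groups. With TMM scaling, large subunit genes summed to 17523, 17139, 16968 and 16534 CPM in shCtrl replicates 1 to 4 and to 15387, 16410, 16693 and 16479 CPM in shTlr7 replicates 1 to 4. Only shTlr7 replicate 3 lay above the lowest shCtrl value. Small subunit genes summed to 11822, 11608, 11417 and 11138 CPM in shCtrl and to 11006, 11917, 12054 and 11918 CPM in shTlr7. Here shTlr7 replicate 1 was the lowest of all 8 libraries and the other 3 were the highest. All 74 genes together took 2.68% to 2.82% of the counts in shCtrl and 2.73% to 2.97% in shTlr7.

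**Figure D2:**
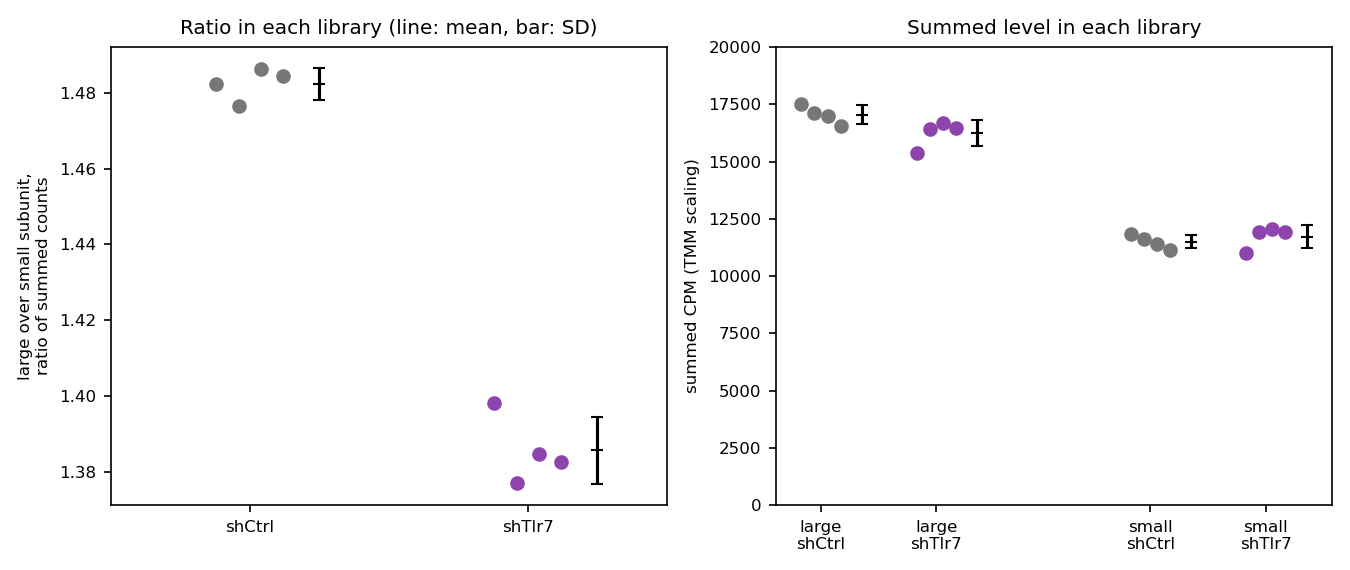
Left, the ratio of summed large to summed small subunit counts (vertical axis, which does not start at 0) in each of 4 shCtrl and 4 shTlr7 libraries; right, the summed CPM of each subunit's genes with TMM scaling; points are libraries, the line and bar beside them mean and SD. The ratio lies between 1.48 and 1.49 in shCtrl and between 1.38 and 1.40 in shTlr7, while the summed levels of the groups overlap for each subunit.

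The P-stalk is a lateral arm of the large subunit in which Rplp0 anchors dimers of Rplp1 and Rplp2, and it is where the translational GTPases dock. All 3 of its genes rose. Rplp0 (chromosome 5, 115559467 to 115563729, GRCm38.p6) stood at 986, 937, 954 and 917 CPM in shCtrl replicates 1 to 4 and at 1090, 1142, 1209 and 1166 CPM in shTlr7 replicates 1 to 4, a log2 fold change of 0.28 ± 0.04 (SE) with an edgeR adjusted p of 1.07e-04. Every shTlr7 library lay above every shCtrl library. Rplp1 stood at 746, 734, 683 and 647 CPM in shCtrl and at 813, 877, 899 and 868 CPM in shTlr7 (0.30 ± 0.05, edgeR adjusted p = 2.47e-04). Rplp2 stood at 390, 374, 387 and 389 CPM in shCtrl and at 419, 447, 464 and 475 CPM in shTlr7 (0.23 ± 0.04, edgeR adjusted p = 5.61e-04). The groups did not overlap for either gene, and over all tested genes shTlr7 lay wholly above shCtrl for 25.6%. Of the other large subunit genes only Rpl41, which encodes a very short protein at the interface of the subunits, was called higher, from 288 ± 26.3 to 332 ± 17.2 CPM (SD, n = 4; log2 fold change 0.21, edgeR adjusted p = 0.0117).

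Rps12 and Rps21 rose most. Rps12 encodes a protein of the beak of the small subunit (chromosome 10, 23785183 to 23787383). It stood at 575, 565, 549 and 515 CPM in shCtrl replicates 1 to 4 and at 705, 775, 795 and 804 CPM in shTlr7 replicates 1 to 4, a log2 fold change of 0.48 ± 0.05 (SE) or 1.40-fold (edgeR adjusted p = 3.09e-06). The lowest shTlr7 library lay well above the highest shCtrl library. Rps21 (chromosome 2, 180257379 to 180258444) stood at 306, 286, 273 and 284 CPM in shCtrl and at 356, 377, 386 and 370 CPM in shTlr7 (0.38 ± 0.04, edgeR adjusted p = 8.24e-06), again with no overlap. Among all 74 members, these alone were called by edgeR's glmTreat against a fold of 1.2.

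Another 5 small subunit genes were called higher by smaller amounts. Rpsa, also known as the laminin receptor and placed at the mRNA exit, went from 912 ± 37.0 to 1035 ± 62.7 CPM (log2 fold change 0.18, edgeR adjusted p = 0.00678), and its groups overlapped because shTlr7 replicate 1 stood at 944 CPM. Rps27 stood at 264, 269, 259 and 260 CPM in shCtrl and at 294, 314, 299 and 282 CPM in shTlr7, a log2 fold change of 0.18 (edgeR adjusted p = 0.00222). Rps20 went from 512 ± 17.7 to 574 ± 14.7 CPM (0.17) and Rps29 from 191 ± 5.65 to 209.7 ± 6.21 CPM (0.13), both with shTlr7 wholly above shCtrl. Rps27a, which is made as a fusion with ubiquitin, had one of 0.10 with an edgeR adjusted p of 0.0468, just inside the threshold. The paralog Rps27l stood at 81.8 ± 6.96 CPM in shCtrl and 81.6 ± 2.90 CPM in shTlr7 and was not called (edgeR adjusted p = 0.961). Rps6, the substrate of the S6 kinases, was not called either (0.06, edgeR adjusted p = 0.262).

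**Figure D3:**
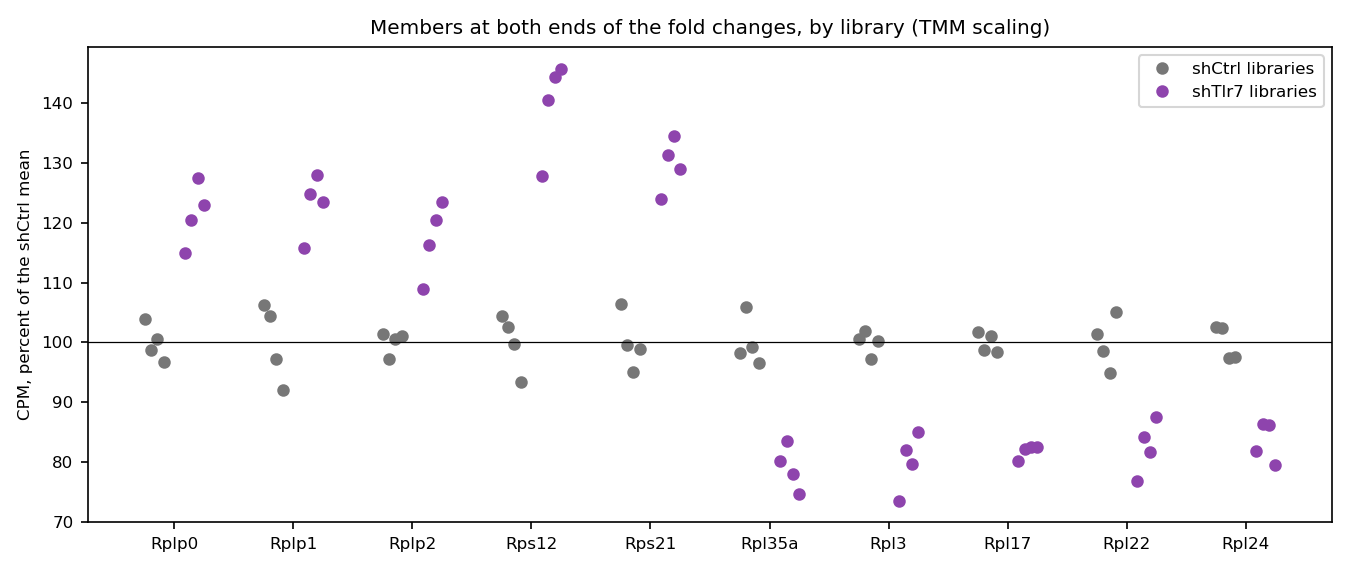
CPM of 10 genes in each library as a percentage of the shCtrl mean (vertical axis, TMM scaling, which does not start at 0); grey points are the 4 shCtrl and purple points the 4 shTlr7 libraries. The P-stalk genes, Rps12 and Rps21 lie above 100 in all 4 shTlr7 libraries, and Rpl35a, Rpl3, Rpl17, Rpl22 and Rpl24 below it, with no overlap between the groups for any of the 10.

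Of the 30 members called lower, 24 belonged to the large subunit. Rpl3 lies close to the peptidyl transferase centre (chromosome 15, 80077781 to 80083406). It stood at 669, 678, 647 and 667 CPM in shCtrl replicates 1 to 4 and at 489, 546, 530 and 565 CPM in shTlr7 replicates 1 to 4, and fell by 0.32 ± 0.05 on the log2 scale (SE; edgeR adjusted p = 5.61e-05). Rpl17, whose protein lines the exit tunnel of the growing peptide, stood at 459, 446, 456 and 444 CPM in shCtrl and at 362, 371, 372 and 372 CPM in shTlr7 (-0.29 ± 0.04, edgeR adjusted p = 1.36e-05). For both genes all shTlr7 libraries lay below all shCtrl libraries, as they did for 24.1% of all tested genes. Rpl35a, a gene mutated in Diamond-Blackfan anaemia, had the lowest log2 fold change of the family at -0.34 ± 0.06, from 29.8 ± 1.23 to 23.5 ± 1.11 CPM (edgeR adjusted p = 1.87e-04). Rpl22 stood at 322, 313, 301 and 333 CPM in shCtrl and at 244, 267, 259 and 278 CPM in shTlr7 (-0.28). Rpl24, a bridge protein gene, stood at 183, 182, 173 and 174 CPM in shCtrl and at 146, 154, 153 and 142 CPM in shTlr7 (-0.26). Rpl27a stood at 242, 227, 229 and 234 CPM in shCtrl and at 192, 194, 199 and 199 CPM in shTlr7 (-0.25). These 3 genes, and Rpl7 at -0.24 and Rpl21 at -0.23, had separate groups. Rpl21 stood at 350, 355, 352 and 344 CPM in shCtrl and at 287, 303, 301 and 303 CPM in shTlr7.

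Rpl5 and Rpl11, which join the 5S ribosomal RNA in a particle that is built before it enters the ribosome, fell side by side. Rpl5 stood at 412, 410, 411 and 388 CPM in shCtrl and at 340, 364, 349 and 341 CPM in shTlr7 (log2 fold change -0.22 ± 0.04, SE; edgeR adjusted p = 3.89e-04). Rpl11 stood at 307, 293, 307 and 283 CPM in shCtrl and at 250, 256, 261 and 248 CPM in shTlr7 (-0.23 ± 0.04, edgeR adjusted p = 2.99e-04). Neither gene's groups overlapped. Among exit tunnel genes, Rpl4 fell as Rpl17 did (-0.17, not called under library size), and Rpl39 was not called (-0.11, edgeR adjusted p = 0.0862). At the rim of the exit, 1 of 5 genes was called, Rpl35 at -0.22 (not called under library size), while Rpl19, Rpl23a, Rpl26 and Rpl31 were not and lay between -0.07 and -0.0033. The subunit bridge genes went apart, with Rpl24 at -0.26, Rpl19 at -0.05 and Rpl41 at 0.21.

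In the small subunit the falls were led by Rps24, from 374 ± 9.52 to 323 ± 11.3 CPM (log2 fold change -0.21, edgeR adjusted p = 4.89e-04), and Rps19 at -0.17 (edgeR adjusted p = 0.00585; not called under library size), both of them genes mutated in Diamond-Blackfan anaemia. Rps7, Rps15a and Rps3 were called lower at -0.11 to -0.10 under TMM and stood between -0.0044 and 0.0049 under library size, where none of the 3 was called, with Rps3 just inside the threshold (edgeR adjusted p = 0.0454). At the mRNA entry, Rps3 thus stood at -0.10 and Rps2 at 0.11, the latter not called (edgeR adjusted p = 0.158). At the mRNA exit, Rps26 (0.05) and Rps14 (-0.09) were not called. Of the 33 members not called, 32 had a 95% interval (SE with 6 degrees of freedom) that lay within a 1.2-fold change, the exception being Rpl10a.

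How many members count as higher or lower depended on scaling. With library totals alone in place of TMM, the median log2 fold change of all tested genes was 0.109 higher, at 0.11, and the members shifted with it. The calls then became 9 higher and 10 lower of 46 large subunit genes (median -0.0089) and 12 higher and 1 lower of 28 small subunit genes (median 0.08), where 59.9% of all tested genes were called, 41.2% higher and 18.6% lower. Relative to the median of all genes, large subunit genes stood at -0.123 under both scalings, and small subunit genes at -0.0366 and -0.0367. The change of scaling moved all these genes by nearly the same amount, so this agreement follows from arithmetic and is no separate support. The 11 genes called higher under TMM were all called higher under library size, and 11 of the 30 called lower were still called lower: Rps24 and 10 large subunit genes, among them Rpl3, Rpl5, Rpl11, Rpl17, Rpl22, Rpl24 and Rpl35a. Of the 29 members whose call differed, 19 were lower under TMM only, among them Rpl38, Rpl30, Rpl34, Rpl35, Rpl37, Rpl4, Rpl36, Rps19, Rpl9, Rpl32, Rpl6, Rpl13, Rpl13a and Rps7. The other 10 were higher under library size only, including Rps2, Rpl8, Rps6 and Rpl36a. No member was called in opposite directions.

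**Figure D4:**
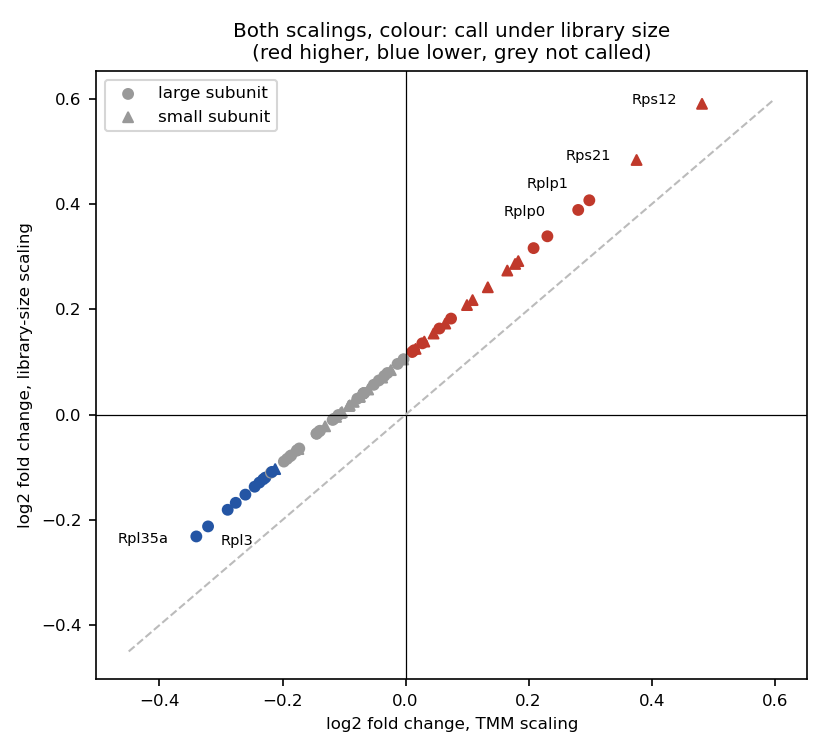
Log2 fold change of the 74 tested genes with TMM scaling (horizontal axis) against library-size scaling (vertical axis); circles are large and triangles small subunit genes, red and blue mark genes called higher and lower under library size, grey genes not called, and the dashed line marks equal values. All points lie above the dashed line by a near-constant shift, and Rps12, Rps21 and the P-stalk genes stay at the upper end in both.

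Of the 82 genes, 8 did not pass the filter. Rps10, Rps18 and Rps28 had 0, 0 and 1 counts over all 8 libraries although each is a core protein of the small subunit, and the table holds 1, 3 and 3 further copies of them. All 3 lie on chromosome 17, as does Rpl10a, which has 1 further copy and stood at 4.42 CPM per kilobase of transcript in shCtrl, where the median over tested members was 442 CPM per kilobase. Their levels are therefore not measured by this table and are not read as absent. The paralogs Rpl10l, Rpl39l, Rpl3l and Rpl32l had 2, 1, 15 and 19 counts in all. Rps4l had 0 counts and, like Rps10, has 1 further copy in the table, so its level is not read as absent either. Exons shared with another gene covered over 20% of the exon length for 8 tested members, among them Rpl24 (71.5%, Gm28037), Rpl5 (46.6%, Fam69a) and Rpl30 (55.0%, D730044K07Rik). Without strand information their reads cannot be told apart from the neighbour's, so their fold changes are uncertain. Processed copies of these genes under symbols of their own were not screened.

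Genes listed as ribosomal proteins or their paralogs, with symbols that fall outside the rule, numbered 7. Of these, 0 were called higher and 3 lower (2 and 1 under library size, where the paralog Rpl7l1 was 1 of the 2). Over all tested genes, 28.7% were called higher and 27.2% lower (41.2% and 18.6% under library size). Rpl22l1, the paralog of Rpl22, had a log2 fold change of -0.45 (edgeR adjusted p = 2.49e-05), from 83.4 to 61.0 CPM on average, so that both paralogs were lower. Rps3a1 stood at -0.18 and the scaffold protein gene Rack1 at -0.14, neither of them called under library size. Fau, in which a ribosomal protein is fused to a ubiquitin-like protein, was not called (-0.10).

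Other parts of the translation machinery were described by their counts, with the same 56% of all tested genes called as background. This background was 28.7% higher and 27.2% lower, or 41.2% and 18.6% under library size. Of 6 tested genes with elongation factor symbols, 0 were higher and 2 lower (3 and 1 under library size). The 2 were Eef1g at -0.27 and Eef1a1 at -0.16, the latter not called under library size. Tpt1, which was listed with them and encodes the translationally controlled tumour protein rather than an elongation factor, stood at -0.17 and was likewise called lower under TMM only. Eef1e1 was counted by its symbol, though its protein belongs to the aminoacyl-tRNA synthetase complex, and was called higher under library size only. Of 37 initiation factor genes, 9 were higher and 11 lower (median -0.02), or 18 and 5 under library size (median 0.09). The lowest p belonged to the eIF3 subunit Eif3h at -0.38, to Eif1, which helps choose the start codon, at 0.36 and to the helicase cofactor Eif4b at -0.30, and larger fold changes were seen among the others. Of 44 ribosome assembly factors, 6 were higher and 11 lower (38.6% called, median -0.07), or 12 and 5 under library size (median 0.03). Here the nucleolar methyltransferase Fbl at -0.36, Noc2l at -0.30 and Pes1 at -0.32 had the lowest p. Mdn1 fell further, at -0.62, and Nop10 (0.36) and Rrp12 (0.34) were among those called higher. Of 6 ribosomal protein chaperones, 3 were higher and 0 lower, namely Bccip at 0.23, Tsr2 at 0.29 and Heatr3, which escorts Rpl5, at 0.23. These are counts of called genes, and no list was tested against another.

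Among 19 tested genes that control growth and translation, 5 were higher and 5 lower (9 and 2 under library size). The shares over all tested genes were 28.7% higher and 27.2% lower (41.2% and 18.6% under library size). Larp1, known to bind terminal oligopyrimidine tracts, fell from 375 to 328 CPM on average (log2 fold change -0.19 ± 0.04, SE; edgeR adjusted p = 4.96e-04), whereas its paralog Larp1b had a log2 fold change of 1.26 ± 0.06 (edgeR adjusted p = 1.02e-09). Eif4ebp2, a repressor of cap-dependent initiation, had one of 0.53 and Tsc2, an inhibitor of mTORC1, one of 0.22. Rptor (0.20) and Mlst8 (0.17) were also called higher. Myc (-0.32), Mtor (-0.22), Rps6kb1 (-0.15) and Max (-0.13) were called lower, and of these only Myc was called under library size. Proteins of the mitochondrial ribosome, which are encoded in the nucleus but serve another ribosome, numbered 74 among the tested genes. Of these, 30 were higher (40.5%) and 9 lower (12.2%), with a median of 0.09, and 46 and 4 under library size. Mrpl4 stood at 0.67, Mrpl51 at 0.57 and Mrps28 at -0.67. The difference between the 2 families was not tested.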

How the data were processed

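RNA-seq read counts of 8 libraries (4 shCtrl, 4 shTlr7) were taken from 1 table. The authors deposited raw counts per gene, without normalization. STAR 2.7.5, DESeq2 1.32.0 and the build GRCm38 are named, without roles, per the submitters' processing notes. Which program counted reads, on which annotation and whether by strand is not given in the sources used here. Of 41730 rows, 2379 are a RefSeq symbol with a number appended, taken as a further copy, and were summed into their gene. Counts were filtered with filterByExpr, scaled by TMM and tested with edgeR 4.0.16 in R 4.3.3 (robust quasi-likelihood test on group, Benjamini-Hochberg over all 13342 tested genes, adjusted p under 0.05). Standard errors are the log2 fold change over the square root of F. CPM values are counts per 1000000 counts of TMM-scaled library size, except for cell type markers and Tlr7, which use library totals. Transcript lengths, GC content and exon overlap came from GENCODE M21 (GRCm38), taking the shortest principal transcript. Promoter windows came from RefSeq.

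Named genes were the 8 called higher and 8 called lower with the lowest p, the members of structural roles, those whose call changed with scaling (up to 15) and 3 genes per companion list. For the list of growth control genes, all called genes were named. The members, roles and lists were chosen with earlier results of these data known. A few genes of these lists are not reported here one by one. The test was tried on simulated data. Alternatives were other scalings, DESeq2 1.42.0, limma-voom (limma 3.58.1), other filters and thresholds, thinning to the smallest library, removal of length and GC trends, a block for the replicate number, and leaving libraries out. Totals ran from 18111623 to 93787535 counts, and the biological coefficient of variation was 6.75%. All 12 within-group pairs differed by more than sampling noise (chi-square per degree of freedom 2.18 to 22.6).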

Additional observations from a re-analysis of the deposited data

Results flagged for a closer look

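In 158 groups of 4 values (the CPM of 72 tested members in each group, the summed levels and the ratio), 11 values stood apart from the other 3 of their group by Dixon's 95% criterion, where chance flags about 1 in 20 groups. Of these, 7 belonged to shTlr7 replicate 1, all of them the lowest of their group. They were Rpl17 at 362 CPM (others 371 to 372), Rpl21 at 287 CPM (301 to 303), Rpl7 at 615 CPM (672 to 682), Rps13 at 233 CPM (248 to 251) and Rps14 at 357 CPM (407 to 416). The other 2 were the summed small subunit level at 11006 CPM (11917 to 12054) and its share of counts at 1.14% (1.23% to 1.25%). Without this library, 20 large subunit genes were called lower in place of 24 and 2 small subunit genes in place of 6. In shCtrl replicate 4, 3 values were the lowest of their group, Rpl5 at 388 CPM (others 410 to 412), Rps2 at 314 CPM (369 to 379) and Rps26 at 298 CPM (305 to 306). In shCtrl replicate 3, Rps13 stood at 248 CPM (260 to 262).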

How the results depend on the processing

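Across 25 alternatives, 8 of the 11 members called higher and 11 of the 30 called lower kept their call in all but the glmTreat test against a fold of 1.2, and 19 of the 30 did when library-size scaling was also set aside. Rplp0, Rplp1, Rplp2, Rps12 and Rps21 were among the 8, and Rpl3, Rpl5, Rpl11, Rpl17, Rpl22, Rpl24 and Rpl35a among the 11. Under library size alone, large subunit genes counted 9 higher and 10 lower (median -0.0089), small subunit genes 12 higher and 1 lower, and the small subunit median turned to 0.077. Rps15a and Rps3, called lower under TMM, then stood at 0.0031 and 0.0049. The lower small subunit genes, 6 under TMM, numbered 3 with upper-quartile scaling, 10 with limma-voom, 2 with no filter on low counts, 2 at adjusted p under 0.01, 2 when scaled to the summed counts of the members and 11 without both libraries numbered 4; the last 2 settings were chosen after seeing the data, and the cause was not tested. Against a fold of 1.2, large subunit genes counted 0 higher and 0 lower and small subunit genes 2 higher and 0 lower. Leaving out each library in turn gave 4 to 5 higher and 20 to 25 lower large subunit genes, and 6 to 9 higher and 2 to 7 lower small subunit genes, with medians from -0.14 to -0.094 and from -0.060 to -0.006. The large over small ratio, at 0.935 of shCtrl, was 0.942 with members free of copies and exon overlap, 0.900 without the P-stalk genes, 0.960 without Rps12 and Rps21 and 0.925 without all 5, all chosen after seeing the data, and it lay between 0.932 and 0.937 without single libraries. Same-numbered libraries correlated at -0.0013 to 0.383 in their deviations from the group means over all genes (over 0.1 in 3 of 4 pairs) and at -0.22 to 0.61 over the members. As the pair numbered 1 did not exceed 0.1, the numbers were not taken as pairs, but this does not exclude that same-numbered libraries shared some handling. With the replicate block, large subunit genes counted 4 higher and 25 lower and small subunit genes 7 higher and 8 lower. Over all 13342 tested genes, the block gave 4241 higher and 4075 lower, against 3835 and 3631 without it. Of 8 libraries, 4 correlated best with their own number. With length and GC trends removed, the counts were 4 and 24, and 7 and 7.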

Other observations

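Genes of RNA polymerase I, which makes the precursor of ribosomal RNA, and of ribosome rescue were also measured. Over all tested genes edgeR called 28.7% higher and 27.2% lower under TMM, and 41.2% and 18.6% under library size. Of 11 tested RNA polymerase I genes, 5 were called higher and 3 lower by edgeR (6 and 1 under library-size scaling), with a median log2 fold change of 0.03. Taf1d stood at 0.31 and Rrn3, the factor that makes the polymerase competent for initiation, at 0.35, while the second largest subunit gene Polr1b stood at -0.37. Of 11 tested genes of ribosome rescue and quality control, 3 were higher and 3 lower (4 and 2 under library size). Among them, G3bp1, a stress granule protein that acts together with the deubiquitinase Usp10, stood at -0.45 and Usp10 at -0.25, whereas Usp16, a deubiquitinase, stood at 0.36. Over 4 libraries per group, mean levels went from 421 to 308 CPM for G3bp1, from 161 to 135 CPM for Usp10 and from 49.0 to 63.0 CPM for Usp16.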
